A study of Rattus norvegicus with 12 samples.

Results

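The genes described here are 40 interferon-stimulated genes and factors of the interferon response, taken by symbol from a fixed list that leaves out the genes of antigen presentation. All 40 were found among the 24660 genes of the count table, and 39 passed the filter on low counts and were tested. The exception was Isg15, which held 2 to 4 counts in every library. They were measured by RNA sequencing in NRK-52E, an established rat cell line labelled as tubular epithelium of the kidney and as wild type, in 4 groups of 3 libraries. Control cells had no agent named in the labels. In the TGF-beta1 group the cells were exposed to that profibrotic cytokine for 24 h. The labelled dose is 10 µg/ml, a unit that may be an error since doses of this cytokine are usually given in ng/ml. The other groups received the same TGF-beta1 and then extracellular vesicles for 48 h at 500000000 particles/ml, either 2D-EVs, made in a conventional way, or 3D-EVs, made in a more productive way. Below, 2D-EV and 3D-EV cells stand for these groups. The sources used here do not give the cells that made the vesicles or the harvest time of the groups without vesicles. Vesicles, added time and any removal of TGF-beta1 therefore cannot be told apart in the vesicle groups.

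Interferons are secreted proteins that warn cells of infection. Type I interferons bind the receptor pair IFNAR1 and IFNAR2, whose kinases JAK1 and TYK2 phosphorylate STAT proteins. STAT proteins joined to IRF9 bind a DNA element called ISRE in the promoters of responsive genes, while STAT pairs activated by interferon gamma bind an element called GAS. The induced proteins sense viral RNA, block its translation and replication, tag proteins with ISG15 and, through SOCS1 and USP18, shut the signal off. Kidney epithelial cells carry the receptors for these interferons and express many of the induced genes at a low resting level.

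The labels name no added interferon, so the promoters are shown for the response elements that some of these genes hold. RefSeq promoter windows (build GRCr8, 250 bases before to 50 after the gene start, 1 window per symbol) were matched by symbol for 32 of the 40 genes. The ISRE core was searched as GAAA, any 2 bases and GAAA, on both strands, and the GAS as TTC, any 3 bases and GAA, a pattern that reads the same on both strands. An ISRE core lay in 19 of the 32 windows (59.4%), against 1034 of 27457 promoter windows in the table (3.77%). A GAS lay in 6 of the 32 (18.8%), against 2382 of all (8.68%). Neither was found in 11 of the 32 windows, among them those of Stat2, Mx1, Cmpk2 and Parp9, and the other 8 genes had no window in the table. A match is a description of the letters and does not show binding.

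Among the genes that changed under TGF-beta1, 4 had a match before the gene start, and their stretches are printed 5′ to 3′ on the gene's strand, with the matches in capitals. Irf1 has a GAS, Irf7 an ISRE read on the opposite strand, Trim21 a pair of overlapping ISRE cores, and Parp14 a GAS followed by an ISRE. The positions are chr10:38417773-38417821 (plus strand) for Irf1, chr1:205800063-205800112 (minus) for Irf7, chr1:166399372-166399409 (minus) for Trim21 and chr11:78408027-78408087 (plus) for Parp14, all in GRCr8.
Irf1: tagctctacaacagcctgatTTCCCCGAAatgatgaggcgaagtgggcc
Irf7: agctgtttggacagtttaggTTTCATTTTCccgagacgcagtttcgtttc
Trim21: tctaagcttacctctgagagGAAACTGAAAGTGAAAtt
Parp14: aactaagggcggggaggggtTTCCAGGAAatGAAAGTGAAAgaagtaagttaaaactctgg

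Bst2 and Socs1, set beside them, also hold a GAS and a pair of overlapping ISRE cores before the gene start but did not pass in any comparison. In Bst2 the GAS also overlaps the first ISRE core. Their stretches are chr16:18255063-18255124 (minus) and chr10:5389358-5389502 (plus), again in GRCr8. A promoter with such matches was thus found both in genes that changed and in genes that did not pass. Of the 19 genes with an ISRE core in the whole window, 4 fell under TGF-beta1 (Irf7, Trim21, Parp14 and Dtx3l, 21.1%). Of the 13 without one, 3 fell (Irf1, Cmpk2 and Parp9, 23.1%). Among the 9715 tested genes with a window in the table, 11% fell. Irf2, which fell, and Usp18, which rose, had no window.
Bst2: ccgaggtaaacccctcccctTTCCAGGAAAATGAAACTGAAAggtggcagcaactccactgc
Socs1: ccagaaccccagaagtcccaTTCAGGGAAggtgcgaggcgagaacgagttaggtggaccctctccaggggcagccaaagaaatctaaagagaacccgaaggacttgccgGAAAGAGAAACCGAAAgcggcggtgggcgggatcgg

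Library totals ran from 32888125 to 39754319 counts. Levels are given in CPM (counts relative to the library total, scaled by TMM factors), as mean ± SD over the 3 libraries of a group, and log2 fold changes carry the standard error (SE) of the edgeR fit. One count stood for 0.0255 to 0.0305 CPM, and 0 counts in a library leave room for a level of 0.0764 to 0.0915 CPM (3 counts), a limit that covers counting error alone. A gene rose or fell where its adjusted p was below 0.05 over all 14184 genes tested. The labels do not say whether the libraries came from separate cultures. The p-values weigh group differences against the spread among these libraries, and that spread may be technical. Of 17 tubule markers 11 were tested. Krt8 (1013 to 1215 CPM as a mean over control and over TGF-beta1 cells) and Ggt1 (165 to 305 CPM) rose. Aqp1 fell (19.8 to 15.0 CPM). Epcam, Pax2 and Hnf4a held 0 counts in all 12 libraries, Krt18 at most 5 counts and Cdh1 2 to 30 counts. The summed tubule list stood at 1220 to 1249 CPM in control and 1534 to 1597 CPM in TGF-beta1 libraries. Of 13 immune markers, 7 (Ptprc, Itgam, C1qa, C1qb, Tyrobp, Ms4a1 and Siglech) held 0 counts in every library. The summed immune list stood at 181 to 197 CPM in control and 248 to 255 CPM in TGF-beta1 libraries, of which Cd14, which rose, gave 185 and 248 CPM on average. Of 7 fibroblast markers 4 were tested: Postn rose (41.3 to 65.0 CPM), Col14a1 fell (199 to 130 CPM), Mfap5 stood at 551 and 552 CPM, and Pdgfra, Dcn and Lum held at most 10 counts. The summed fibroblast list stood at 777 to 831 CPM in control and 758 to 783 CPM in TGF-beta1 libraries. Of 7 endothelial markers 3 were tested and Egfl7 rose (9.93 to 13.2 CPM), while Pecam1, Kdr and Cdh5 held at most 15 counts and Emcn 0. The summed endothelial list stood at 12.4 to 13.6 CPM in control and 15.4 to 16.1 CPM in TGF-beta1 libraries. The part of these markers in the results was not tested.

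TGF-beta1 against control cells asked which of these genes the cytokine changed. Of the 39 tested, 8 fell and 1 rose, while 30 did not pass. The falls were in the transcription factors Irf1, Irf2 and Irf7, the ADP-ribosylation genes Parp9, Dtx3l and Parp14, the ubiquitin ligase gene Trim21 and the nucleotide kinase gene Cmpk2, and the rise was in Usp18. All were small, at most 0.62 on the log2 scale. The share that changed (23.1%) was near that of all genes tested (22%), so the number of changed genes does not set this list apart. By direction, 20.5% of the list fell and 2.56% rose, against 10.2% and 11.8% of all genes. With library totals in place of TMM factors the list gave 8 lower and 0 higher, and all genes 2240 lower and 1144 higher in place of 1448 and 1675. The groups did not overlap in 10 of the 39 genes, 9 lower (18.9% of all genes were) and 1 higher (19.1% were), beside 38% of all genes in either direction. The median log2 fold change was -0.06 (14 above and 25 below 0), beside -0.00499 for all genes.

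**Figure D1:**
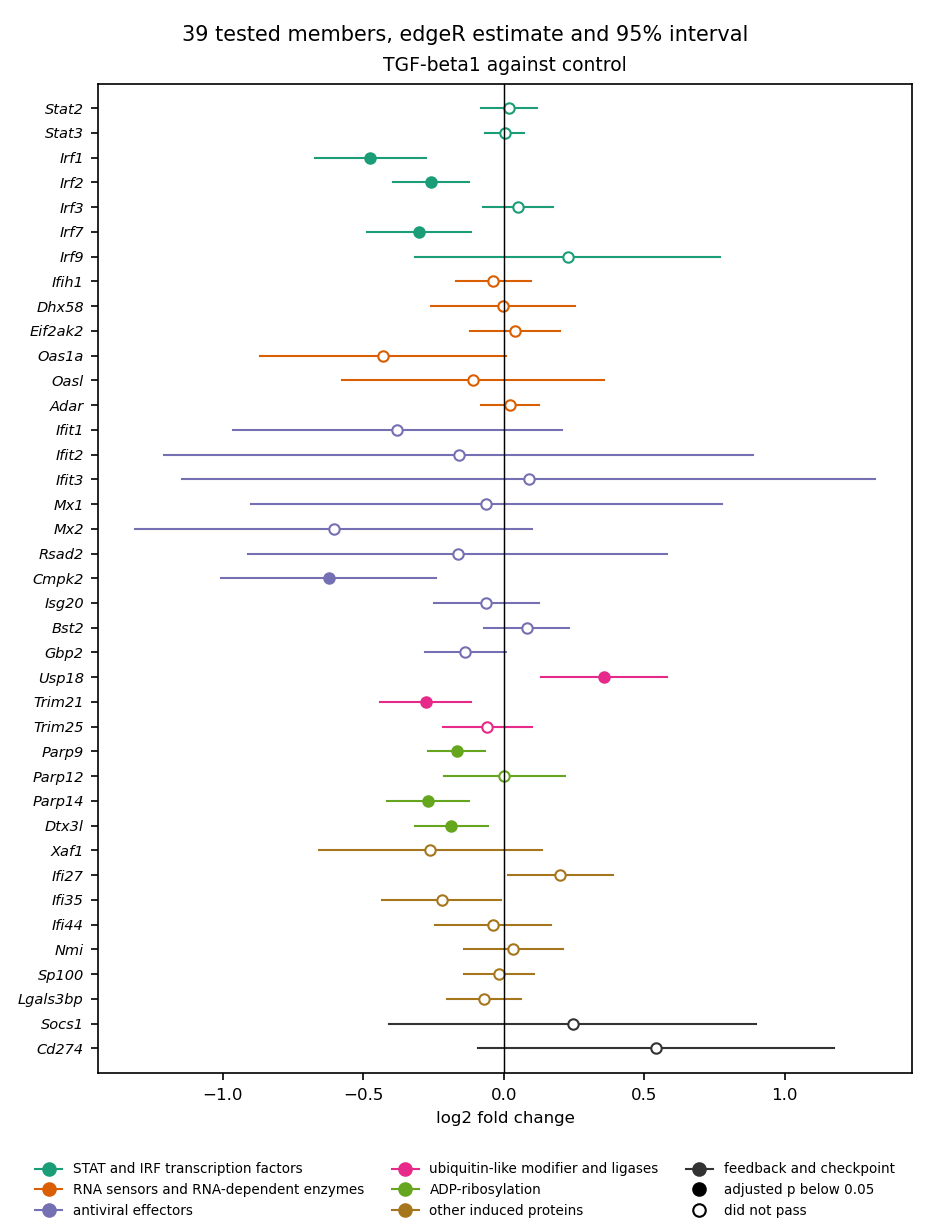
Log2 fold change of the 39 tested genes in TGF-beta1 against control cells (x axis), 1 gene per line and coloured by role, with the edgeR estimate as a point and its 95% interval as a bar. Filled points passed (adjusted p below 0.05): 8 lie to the left of 0 and Usp18 to the right, and the widest bars belong to weakly expressed genes such as Ifit2 and Ifit3.

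Irf1, a transcription factor that interferon gamma induces through its GAS, fell most clearly. Its libraries stood at 19.6, 16.9 and 18.0 CPM in control cells and at 12.4, 13.7 and 13.1 CPM in TGF-beta1 cells. The groups did not overlap (18.2 ± 1.38 against 13.1 ± 0.619 CPM), and the log2 fold change was -0.47 (SE 0.09, edgeR adjusted p = 0.00168). It was called with any single library left out (highest adjusted p = 0.0118).

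Irf2, a factor that competes with IRF1 for the same sites, fell as well. It stood at 35.7, 32.5 and 32.9 CPM in control libraries and at 29.8, 27.0 and 27.6 CPM in TGF-beta1 libraries, again without overlap. The log2 fold change was -0.26 (SE 0.06, edgeR adjusted p = 0.00811), called with any single library left out (highest 0.0469). Irf7, the factor that amplifies type I interferon production, stood at 16.4, 18.6 and 17.6 CPM in control and at 13.7, 13.1 and 15.9 CPM in TGF-beta1 libraries. Its groups lay close to each other without overlap, and the log2 fold change was -0.30 (SE 0.09, edgeR adjusted p = 0.0206). Leaving out control replicate 2, control replicate 3, TGF-beta1 replicate 1 or TGF-beta1 replicate 2 ended that call (adjusted p = 0.0561 to 0.0978).

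The other factors did not pass. Stat2, a part of the ISRE-binding complex, stood at 65.6 ± 1.47 and 66.4 ± 2.19 CPM in control and TGF-beta1 cells. Stat3, which carries cytokine signals of the interleukin-6 family, stood at 153 ± 1.90 and 153 ± 4.40 CPM, and Irf3, which is activated by phosphorylation after viral sensing, at 55.6 ± 3.33 and 57.6 ± 1.66 CPM. The 95% intervals of these 3 log2 fold changes ran from -0.08 to 0.17 in all. Irf9, the DNA-binding member of the ISRE complex, differed so much among libraries of a group that no direction could be read: 8.87, 5.83 and 8.31 CPM in control and 8.80, 6.10 and 12.1 CPM in TGF-beta1 libraries.

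Parp9, Dtx3l and Parp14 lie next to each other in the RefSeq gene order and fell together. PARP9 forms a complex with the ubiquitin ligase DTX3L, and PARP14 attaches ADP-ribose to proteins. Parp9 stood at 79.5, 84.4 and 79.7 CPM in control and at 69.4, 69.8 and 77.7 CPM in TGF-beta1 libraries, where replicate 3 came near the control range. The log2 fold change was -0.17 (SE 0.05, edgeR adjusted p = 0.0209).

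Dtx3l stood at 53.7, 53.9 and 49.5 CPM in control and at 44.7, 45.6 and 47.7 CPM in TGF-beta1 libraries, a log2 fold change of -0.19 (SE 0.06, edgeR adjusted p = 0.0404). Parp14 stood at 37.2, 42.9 and 38.9 CPM in control and at 31.6, 32.0 and 35.1 CPM in TGF-beta1 libraries, a log2 fold change of -0.27 (SE 0.07, edgeR adjusted p = 0.00994). The groups of all 3 genes did not overlap, and in each gene TGF-beta1 replicate 3 was the highest of its group. Parp14 lost its call without control replicate 2 (0.0550), Parp9 without control replicate 2 or TGF-beta1 replicate 1 or 2 (0.0969 to 0.0999), and Dtx3l without control replicate 1, control replicate 2, TGF-beta1 replicate 1 or TGF-beta1 replicate 2 (0.110 to 0.133). Parp9 and Dtx3l overlap in the annotation, and how the counting treated strand is not given in the sources used here, so reads of their overlap cannot be assigned with certainty. Parp12, a zinc-finger relative elsewhere in the genome, stood at 9.96 ± 0.915 and 9.98 ± 0.302 CPM.

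Trim21, an antibody receptor of the cytosol and ubiquitin ligase, fell from 15.0, 16.4 and 15.9 CPM in control libraries to 12, 12.8 and 14.1 CPM in TGF-beta1 libraries. These groups did not overlap (log2 fold change -0.28, SE 0.08, edgeR adjusted p = 0.0154), but the call was lost without control replicate 2 or TGF-beta1 replicate 1 or 2 (0.0515 to 0.0699). Cmpk2, a mitochondrial nucleotide kinase, had the largest fall on the log2 scale at -0.62 (SE 0.18, edgeR adjusted p = 0.0213). Its libraries stood at 3.44, 4.26 and 3.89 CPM in control and at 2.07, 2.72 and 2.72 CPM in TGF-beta1 cells, from 72 to 146 counts each. Leaving out control replicate 2, control replicate 3 or TGF-beta1 replicate 1 ended the call (0.0531 to 0.0942). Rsad2, the neighbour of Cmpk2 that encodes the antiviral enzyme viperin, stood at 1.55 ± 0.282 and 1.38 ± 0.208 CPM and did not pass.

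Usp18, the protease that removes ISG15 and blocks the type I receptor, went the other way. Its libraries stood at 15.4, 17.3 and 13.7 CPM in control and at 17.2, 19.5 and 22.6 CPM in TGF-beta1 cells, where replicate 1 fell within the control range. The log2 fold change was 0.36 (SE 0.11, edgeR adjusted p = 0.0239), and the call was lost without control replicate 1, control replicate 3, TGF-beta1 replicate 2 or TGF-beta1 replicate 3 (0.0545 to 0.121) and with library totals in place of TMM factors (0.0504). Isg15, the modifier that USP18 removes and the gene left untested, was near the limit of measurement with 0.0860 CPM in control and 0.0749 CPM in TGF-beta1 cells on average. Whether these few counts stand for low expression or for the gene model used in counting was not tested. Trim25, a ligase for both ubiquitin and ISG15, stood at 24.9 ± 2.20 and 23.9 ± 0.694 CPM.

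**Figure D2:**
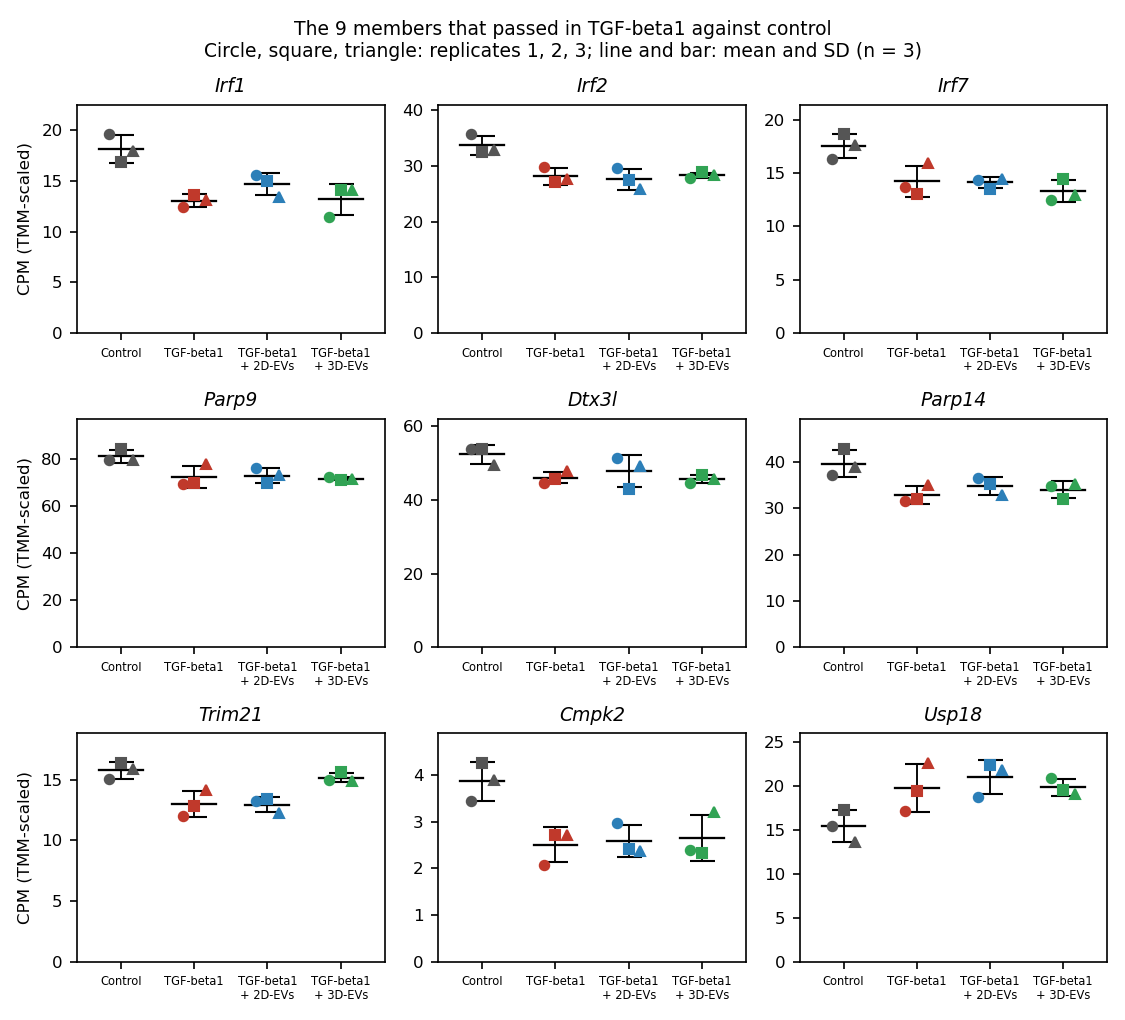
CPM (y axis, from 0) of the 9 genes that passed in TGF-beta1 against control cells, in the 3 libraries of each of the 4 groups, with mean and SD. Irf1 lies below the control libraries in all 9 libraries given TGF-beta1, while Trim21 in 3D-EV cells lies near its control level.

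The sensors of viral RNA did not pass. Ifih1, the receptor MDA5, stood at 28.6 ± 0.881 CPM in control and 27.9 ± 0.954 CPM in TGF-beta1 cells, and Dhx58, its helper LGP2, at 9.94 ± 0.942 and 9.92 ± 1.09 CPM. Eif2ak2, the kinase PKR that halts translation, stood at 44.3 ± 3.99 and 45.6 ± 4.44 CPM, and Adar, which edits adenosine in double-stranded RNA, at 46.2 ± 1.08 and 47.0 ± 2.55 CPM. Oasl stood at 2.30 ± 0.224 and 2.13 ± 0.326 CPM and did not pass. Oas1a, an oligoadenylate synthetase, stood at 5.68, 7.73 and 5.07 CPM in control and at 3.68, 3.76 and 6.26 CPM in TGF-beta1 libraries. It did not pass (log2 fold change -0.43, edgeR adjusted p = 0.16) but was called without TGF-beta1 replicate 3 (0.0151). It has near copies in the rat genome (Oas1i and Oas1k were counted separately), so its counts are uncertain.

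Among the antiviral effectors, the classical strongly induced genes were weakly expressed in all groups. Ifit2 held 4 to 28 counts in a library, Ifit3 6 to 24, Mx1 17 to 53 and Ifit1 41 to 93. These genes limit translation of foreign RNA (the Ifit family) or trap viral particles (the Mx family), and their 95% intervals were too wide to read a change of the size seen in Irf1. Apart from Cmpk2, which fell, the effectors with more counts did not pass. Bst2, which tethers budding virus to the cell surface, stood at 23.5 ± 1.23 and 24.9 ± 1.92 CPM, Isg20, an exonuclease, at 13.7 ± 0.322 and 13.1 ± 0.231 CPM, and Gbp2, a guanylate-binding protein, at 26.7 ± 1.61 and 24.3 ± 1.20 CPM.

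Of the remaining induced genes none passed. Ifi27, a small mitochondrial membrane protein, stood at 78.2, 89.7 and 73.5 CPM in control and at 87.4, 83.2 and 107 CPM in TGF-beta1 libraries, which overlapped (log2 fold change 0.20, edgeR adjusted p = 0.119), and it was called without control replicate 2 (0.0398). Ifi35, which binds the protein NMI, lay lower without overlap but did not pass (19.8 ± 2.05 against 17.0 ± 0.974 CPM, adjusted p = 0.131), and Nmi itself stood at 32.9 ± 2.5 and 33.7 ± 1.55 CPM. Sp100, a nuclear body protein, Ifi44, Lgals3bp, a secreted glycoprotein, and Xaf1, a proapoptotic protein, had log2 fold changes of -0.02, -0.04, -0.07 and -0.26. Cd274, the immune checkpoint ligand PD-L1, held 23 to 50 counts and Socs1, the inhibitor of JAK kinases, 36 to 89 counts per library, and neither passed.

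Beside these genes, a further list of 117 interferon ligands, receptors, sensors, regulators and other induced genes was read from the same fit. Of these, 102 were in the count table and 83 were tested. In TGF-beta1 against control cells 10 of the 83 rose and 10 fell, which is 24.1% beside the 22% of all genes. Among the 44 other induced genes tested, 6 rose and 6 fell. With library totals in place of TMM factors 6 of the 83 rose and 18 fell. The count of 20 dropped to 12 without control replicate 1 and to 13 without control replicate 2, control replicate 3 or TGF-beta1 replicate 1. The ligand genes Ifnb1, Ifnk, Ifng, Ifnl1 and Ifnl3 held 0 counts in all 12 libraries and Ifna1 and Ifna4 at most 2. Ifne, the epithelial type I interferon of the reproductive tract, was the exception with 19 to 44 counts, and it did not pass (1.12 ± 0.0892 against 0.806 ± 0.137 CPM in control and TGF-beta1 cells, adjusted p = 0.318).

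The receptor and kinase genes were well expressed. Ifnar2 rose from 85.8 ± 1.73 to 96.3 ± 2.96 CPM, Ifngr2, a chain of the interferon gamma receptor, from 30.8 ± 1.27 to 35.2 ± 0.419 CPM and Tyk2 from 46.5 ± 1.40 to 53.5 ± 2.41 CPM. Jak1 fell from 237 ± 3.65 to 219 ± 9.19 CPM. The genes Ifnar1 (102 and 101.3 CPM), Ifngr1 (51.4 and 52.5 CPM), Jak2 (55.7 and 56.4 CPM) and Ifnlr1, the receptor of lambda interferons (24.8 and 21.9 CPM), did not pass. Il10rb, the second chain of the lambda receptor, held at most 2 counts. Of the falls with the smallest p, the larger were in Ifi47, an interferon-induced GTPase (8.26 ± 0.247 to 4.0 ± 0.238 CPM, log2 fold change -1.05), and in Socs3, an inhibitor of JAK signalling (57.9 ± 7.0 to 32.7 ± 3.52 CPM, log2 fold change -0.83). Trim34 (-0.42) and Lgals9, a galectin (-0.28), fell too, while Shisa5 (0.32), the phosphatase gene Ptpn11 (0.22) and Slfn2 (0.17) rose.

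Vesicle treatment after TGF-beta1 was compared with TGF-beta1 alone to see whether either preparation moved these genes. None of the 39 passed with 2D-EVs or with 3D-EVs in edgeR, and none passed in DESeq2 or limma-voom. The background was almost as low: 0.0282% of all genes were called with 2D-EVs and 0% with 3D-EVs. At an unadjusted p below 0.05, edgeR counted 3 of the 39 with 2D-EVs (Stat2, Irf9 and Mx2) and 1 with 3D-EVs (Trim21), beside 1008 and 1027 of all 14184 genes. The median log2 fold change of the list was 0.02 with 2D-EVs and -0.00122 with 3D-EVs. The groups did not overlap in Mx2 and Rsad2 (higher) and Adar (lower) with 2D-EVs, and in Trim21 (higher) and Trim25 and Cd274 (lower) with 3D-EVs. That is 3 of 39 each, beside 12.4% of all genes with 2D-EVs (6.13% higher, 6.23% lower) and 13.6% with 3D-EVs (6.79% higher, 6.84% lower). Of the 83 tested genes of the further list, 0 passed with either preparation, and 4 with 2D-EVs and 10 with 3D-EVs had an unadjusted p below 0.05. Among its 44 other induced genes these were 2 with 2D-EVs (4.55%) and 8 with 3D-EVs (18.2%), beside 7.11% and 7.24% of all genes. Of the 44, 31 lay above 0 with 2D-EVs and 30 with 3D-EVs. Whether this set moved as a whole was not tested. Both comparisons share the 3 TGF-beta1 libraries, so their values are not independent.

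The 95% intervals give the range of group differences that the spread among these libraries allows. They were taken gene by gene, without adjustment for the number of genes. The Irf1 libraries of 2D-EV cells (15.6, 15.0 and 13.5 CPM) and of 3D-EV cells (11.4, 14.1 and 14.1 CPM) all lay below the lowest control library. Against TGF-beta1 alone its log2 difference was 0.17 with 2D-EVs (interval -0.03 to 0.37) and 0.01 with 3D-EVs (interval -0.19 to 0.21). Both intervals end below 0.47, the estimated fall under TGF-beta1, which has its own error and rests on the same TGF-beta1 libraries. Irf2 stood at 29.6, 27.4 and 25.8 CPM in 2D-EV and at 27.8, 28.8 and 28.3 CPM in 3D-EV libraries, and differed by -0.03 (interval -0.16 to 0.11) with 2D-EVs and by 0.01 (interval -0.13 to 0.14) with 3D-EVs. Irf7 stood at 14.4, 13.5 and 14.5 CPM in 2D-EV and at 12.5, 14.5 and 12.9 CPM in 3D-EV libraries, with intervals of -0.20 to 0.18 and -0.29 to 0.09. For these 3 transcription factors every vesicle library lay below every control library.

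The other changed genes also stayed without a call against TGF-beta1 alone. Usp18 stood at 18.8, 22.4 and 21.8 CPM in 2D-EV and at 20.9, 19.6 and 19.1 CPM in 3D-EV libraries, and its intervals against TGF-beta1 alone were -0.13 to 0.31 and -0.22 to 0.23. Cmpk2, the weakest of the changed genes, stood at 2.97, 2.41 and 2.38 CPM in 2D-EV and at 2.39, 2.33 and 3.21 CPM in 3D-EV libraries, with wider intervals of -0.35 to 0.44 and -0.31 to 0.47. The neighbours Parp9, Dtx3l and Parp14 were measured more tightly. Parp9 stood at 76.0, 69.6 and 73.3 CPM in 2D-EV and at 72.4, 71.0 and 71.5 CPM in 3D-EV libraries (intervals -0.09 to 0.12 and -0.12 to 0.09). Dtx3l stood at 51.5, 43.1 and 49.2 CPM in 2D-EV and at 44.5, 46.7 and 45.6 CPM in 3D-EV libraries (intervals -0.07 to 0.19 and -0.14 to 0.12). Parp14 stood at 36.6, 35.2 and 32.8 CPM in 2D-EV and at 34.8, 32.1 and 35.3 CPM in 3D-EV libraries (intervals -0.06 to 0.23 and -0.10 to 0.20).

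**Figure D3:**
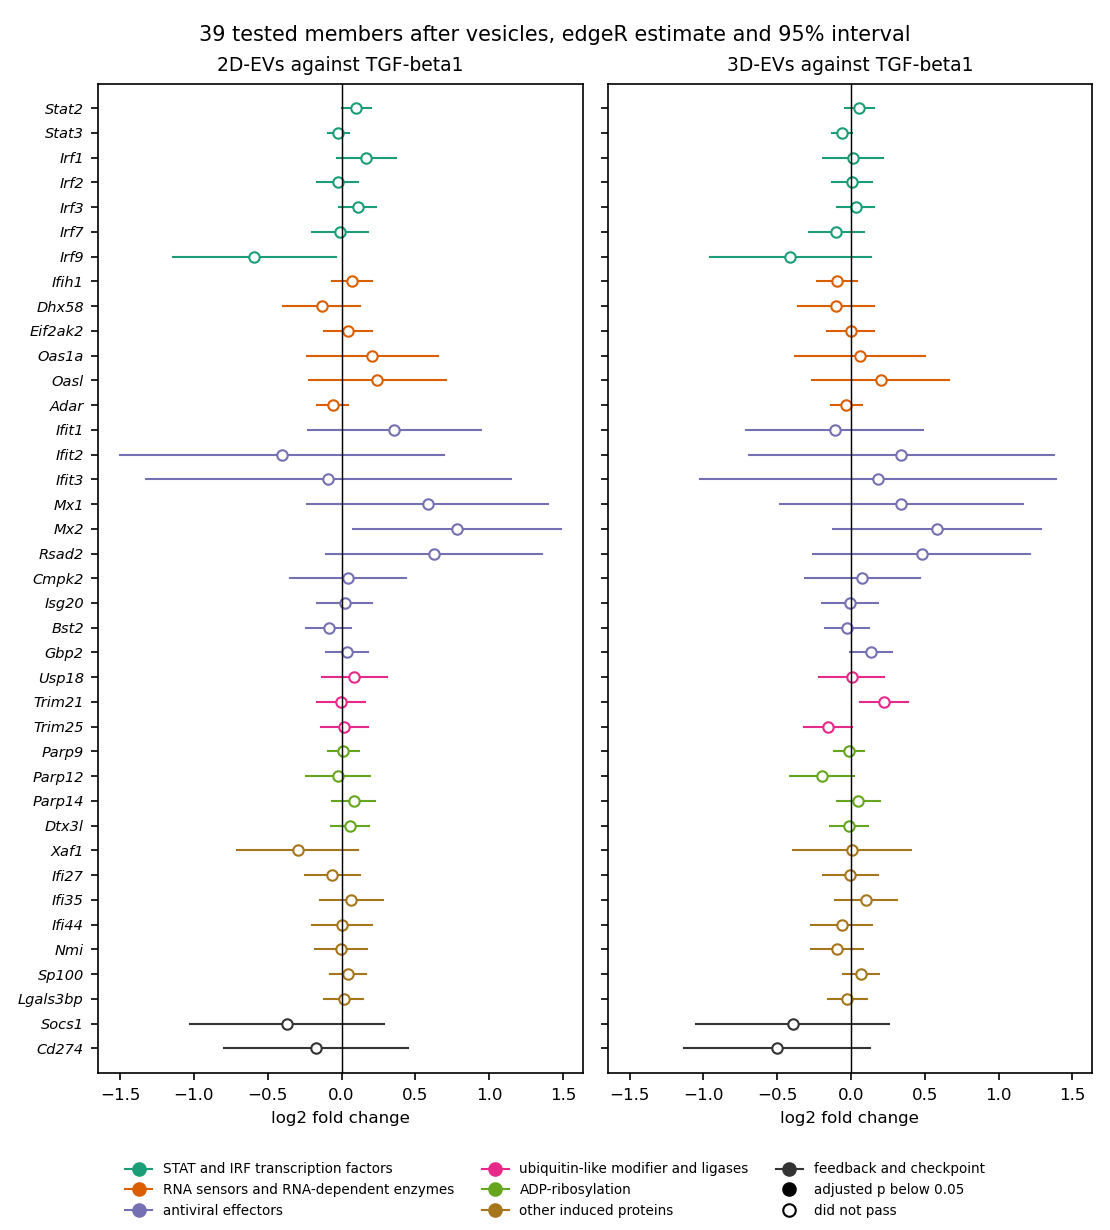
Log2 fold change of the 39 tested genes in 2D-EV cells (left) and 3D-EV cells (right) against TGF-beta1 cells, which both panels share, with the edgeR estimate as a point and its 95% interval as a bar. All points are open, since none passed, and in the right panel the bar of Trim21 lies wholly above 0.

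Trim21 had the smallest unadjusted p with 3D-EVs. It stood at 15.0, 15.6 and 14.9 CPM in 3D-EV libraries, above all TGF-beta1 libraries (12 to 14.1 CPM) and all 2D-EV libraries (13.2, 13.4 and 12.2 CPM). The log2 difference was 0.22 (interval 0.06 to 0.38) from TGF-beta1 cells and 0.23 (interval 0.07 to 0.39) from 2D-EV cells. Neither passed over all genes (edgeR adjusted p = 0.596 and 0.618). Mx2 stood at 6.56, 8.04 and 10.2 CPM in 2D-EV libraries, above all TGF-beta1 libraries (5.89, 3.31 and 5.22 CPM), and did not pass (adjusted p = 0.624). Its control libraries spanned 4.97 to 11.3 CPM, which covers both groups but for the lowest TGF-beta1 library.

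Between the preparations, 3D-EV against 2D-EV cells, none of the 39 passed in edgeR, DESeq2 or limma-voom, beside 0.00705% of all genes in edgeR. At an unadjusted p below 0.05, edgeR counted 3 of the 39 (7.69%), beside 978 of all 14184 genes (6.9%). Of the 3, Trim21 lay higher in 3D-EV cells, and Ifih1 and Trim25 lay lower. Ifih1 stood at 28.5, 30.1 and 29.1 CPM in 2D-EV and at 23.7, 27.0 and 27.5 CPM in 3D-EV libraries (log2 difference -0.17, interval -0.30 to -0.03, edgeR adjusted p = 0.637). Trim25 stood at 24.2 ± 0.616 and 21.5 ± 1.84 CPM in 2D-EV and 3D-EV cells (log2 difference -0.18, interval -0.34 to -0.02). The groups did not overlap in 4 of the 39: Trim21 and Xaf1 were higher in 3D-EV cells (5.67% of all genes were) and Ifih1 and Trim25 lower (5.68% were), beside 11.4% in either direction.

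The vesicle groups were also set against untreated cells, which shares the 3 control libraries with the comparison under TGF-beta1 alone. In 2D-EV cells 6 of the 39 were lower (Irf1, Irf2, Irf7, Cmpk2, Trim21 and Parp9) and Usp18 was higher, 17.9% beside 18.6% of all genes (10.5% higher, 8.13% lower). Groups did not overlap in 10 of the 39, 2 higher and 8 lower, beside 33.2% of all genes (17.2% higher, 16.1% lower). In 3D-EV cells 7 were lower (Irf1, Irf2, Irf7, Cmpk2, Parp9, Parp14 and Dtx3l) and Usp18 was higher, 20.5% beside 23% of all genes (12.2% higher, 10.8% lower). Groups did not overlap in 9 of the 39, 1 higher and 8 lower, beside 38% of all genes (19.4% higher, 18.6% lower). The log2 differences of Irf1 from control were -0.47 in TGF-beta1 cells, -0.31 in 2D-EV cells and -0.46 in 3D-EV cells. Those of Irf7 were -0.30, -0.31 and -0.40, and those of Usp18 were 0.36, 0.44 and 0.36. These calls were not equally stable in the 6 fits with 1 library left out. In the same order of groups, Irf1 kept its call in 6, 2 and 6 fits, Irf7 in 2, 3 and 6 and Usp18 in 2, 6 and 2. Trim21 differed by -0.28 in TGF-beta1 cells and in 2D-EV cells and by -0.06 in 3D-EV cells, where it did not pass (edgeR adjusted p = 0.661). The 2D-EV count of 7 dropped to 4 without control replicate 2 and to 3 without control replicate 3 or 2D-EV replicate 2, and the 3D-EV count of 8 to 5 without control replicate 2 or 3 and to 4 without 3D-EV replicate 2.

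Libraries of the same group differed more in these genes than counting alone gives, with each count taken as 1 read. The smallest counts do not behave as single reads, so the true counting error may be larger. The coefficient of variation within groups was 1.92 times its counting error at the median of the 39 genes, beside 1.82 times for all genes tested. It was 5.58 times in Mx2, 5.37 times in Ifi27, 4.66 times in Irf9 and 3.98 times in Lgals3bp, the last of which was at the 94.7 percentile of all genes in this ratio. Mx2 stood at 11.3 CPM in control replicate 2 but at 4.97 and 5.74 CPM in the other control libraries, and at 4.02 CPM in 3D-EV replicate 1 but at 9.11 and 8.54 CPM in the other 3D-EV libraries. Rsad2 likewise stood at 0.764 CPM in 3D-EV replicate 1 and at 2.62 and 2.44 CPM in the others.

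**Figure D4:**
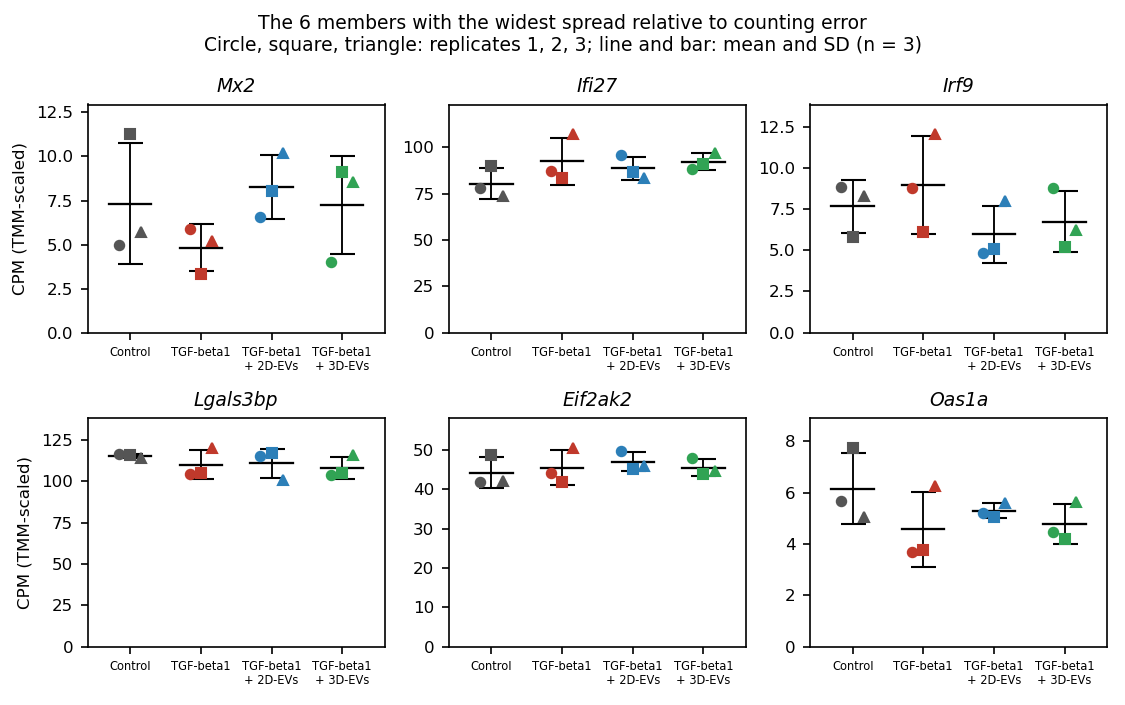
CPM (y axis, from 0) of the 6 genes whose spread within groups was largest relative to counting error, in the 3 libraries of each of the 4 groups, with mean and SD. Mx2 spans 4.97 to 11.3 CPM within the control group, and Irf9, Ifi27 and Oas1a are highest in TGF-beta1 replicate 3 (triangle) within their group.

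Some libraries were high in many of these genes at once. TGF-beta1 replicate 3 was the highest of its group in 24 of the 39 (61.5%), beside 34.9% of all genes tested, among them Irf9, Ifi27, Oas1a, Usp18 and Parp9. In 2D-EV cells, replicate 1 was highest in 23 of the 39, beside 33.3% of all genes, and in control cells replicate 2 in 21, beside 33%. Without control replicate 2 the count of changed genes in TGF-beta1 against control cells was 4 (2 higher and 2 lower), and without TGF-beta1 replicate 3 it was 9 (all lower). Without TGF-beta1 replicate 1 or 2 it was 4.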

How the data were processed

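RNA of 12 NRK-52E libraries, 3 in each of 4 groups, was sequenced. The submitters' processing notes name fastp, HISAT2, StringTie, DESeq2 and, as build, mRatBN7.2. The sources used here do not give versions, counting settings, strand handling or annotation. The authors deposited whole-number counts per gene without normalization. All 12 tables per library were checked against the joint table and held the same values. Over the table the count 1 filled fewer cells than the count 2 (1514 and 5687), so the smallest counts, such as those of Isg15, do not behave as single reads. In R 4.3.3, edgeR 4.0.16 was fitted once to all 12 libraries (4 group means, TMM factors 0.983 to 1.03, filterByExpr with a minimum count of 10, which kept 14184 genes, 5394 being at 0 in every library). The quasi-likelihood F-test gave 6 comparisons, adjusted by Benjamini-Hochberg over all genes tested, with a threshold of 0.05. SEs are the log2 fold change over the root of F, and 95% intervals use the t quantile of the fit. The code was tested on simulated data. Alternatives used DESeq2 1.42.0, limma 3.58.1 (voom), other scalings and filters, 2-group fits, a replicate term and single libraries left out.

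Genes and lists were chosen with earlier results of these data known, so no list test was made. Genes of the list with adjusted p below 0.05 in at least 1 comparison are given per library. Other genes of the list are given by means, ranges or log2 fold changes, except Irf9, Oas1a, Ifi27, Mx2, Rsad2 and Ifih1, printed per library after their values were seen. Of the further list, receptors and kinases are given, and else up to 4 genes per direction with the smallest adjusted p and a mean of at least 1 CPM. Other genes were named after their values were seen. Libraries of 1 group differed by 6.82 to 10.9 times the counting variance, with each count taken as 1 read. None was thus a copy of another, but this cannot tell repeat preparations of 1 culture from separate cultures. Same-numbered libraries of different groups were checked for pairing: 18 correlations of deviations ran from -0.108 to 0.112, 1 of them above 0.1, so numbers were not used as pairs. Promoter sequences and gene order come from RefSeq tables on GRCr8, which give no coordinates for the counts. All 40 symbols matched the gene table.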

Additional observations from a re-analysis of the deposited data

How the results depend on the processing

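The count of changed genes of the list in TGF-beta1 against control cells was 9 and ran from 8 to 9 under the 9 other settings, and from 4 to 9 with single libraries left out. In 2D-EV against control cells it was 7, ran from 3 to 7 with libraries left out, and dropped to 4 with a replicate block. DESeq2 added Irf3, Parp14 and Xaf1 there, and library totals added Parp14 and Xaf1. Xaf1 also passed with no low-count filter and with a filter at a mean of 1 CPM. Parp9 lost its call with the 2 groups alone. In 3D-EV against control cells the count was 8 and ran from 4 to 7 with libraries left out. Library totals added Stat3, Ifih1 and Trim25 there. DESeq2, upper-quartile factors and the 1 CPM filter added Trim25, and Cmpk2 lost its call with the 2 groups alone. In the 3 comparisons among cells given TGF-beta1 the count was 0 in every setting and with every library left out. The further pathway list ran from 12 to 16 against 20 (TGF-beta1 against control), 9 to 11 against 13 (2D-EV against control) and 10 to 14 against 17 (3D-EV against control) with libraries left out. The replicate block ended the calls of Dtx3l under TGF-beta1 (adjusted p = 0.0652), of Irf1, Cmpk2 and Parp9 in 2D-EV against control cells, and of Cmpk2 and Parp14 in 3D-EV against control cells. It moved no other count of calls in the list by over 1.5 times. Of the 12 libraries, 4 had their highest correlation, among libraries of other groups, with a library of the same number. That equals the share of same-numbered libraries among those compared. The cause of the lost calls was not tested. No gene of the list changed sign where it was called in the fit reported or in an alternative.

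Over all genes, 2D-EV against TGF-beta1 cells gave 4 calls, and 14 with no low-count filter, 56 with DESeq2, 9 with limma-voom, 7 with the 2 groups alone and 1 to 3 with libraries left out. 3D-EV against TGF-beta1 cells gave 0, 13 with DESeq2 and 0 to 2 with libraries left out. 3D-EV against 2D-EV cells gave 1, 8 with no filter, 21 with DESeq2, 2 with limma-voom, with the 2 groups alone or with a replicate block, and 1 to 3 with libraries left out. The cause of these was not tested. Library totals in place of TMM factors moved the median log2 fold change of all genes to -0.06 in TGF-beta1 against control cells. The genes Ifit2, Ifit3, Mx1, Cd274 and Socs1 were weakly expressed. Their coefficients of variation within groups were 22.5% (Cd274) to 50.2% (Ifit3). Their counting errors were 13.6% (Socs1) to 28.3% (Ifit3). The part of depth in their spread was not tested.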

Other observations

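The ISRE core was also counted in promoters outside the list, a set chosen after the data were seen and therefore given without a test. Of 255 tested genes with an ISRE core in the window that are not on the list, 16 rose (6.27%) and 33 fell (12.9%) in TGF-beta1 against control cells. Among the 9715 tested genes with a window in the table, 12.6% rose and 11% fell. The median log2 fold change was -0.03 in the first set and -0.00234 in the second. Neither vesicle preparation against TGF-beta1 alone had a called gene among the 255.

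Ifi47 and Socs3 had the largest falls on the log2 scale among the genes of the further list that passed in TGF-beta1 against control cells. Gbp4 (0.486 to 0.196 CPM) and Phf11 (0.638 to 0.271 CPM) had larger fitted differences from fewer counts and did not pass. Ifi47 stood at 8.01, 8.26 and 8.51 CPM in control, 3.91, 4.27 and 3.82 CPM in TGF-beta1, 5.31, 4.30 and 4.42 CPM in 2D-EV and 5.78, 4.30 and 5.48 CPM in 3D-EV libraries. Socs3 stood at 54.6, 53.2 and 66 CPM in control and at 36.6, 29.7 and 31.7 CPM in TGF-beta1 libraries. Both lay below every control library in all 9 libraries given TGF-beta1. Isg15 held 2 to 4 counts in each of the 12 libraries while genes of the same response such as Ifi27 held 2627 to 3897.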
